A study of Mus musculus with 9 samples.

Results

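Snai1, Snai2, Zeb1, Zeb2, Twist1 and Twist2 encode the transcription factors of the epithelial-to-mesenchymal transition (EMT), and Cdh1, Cdh2 and Vim encode E-cadherin, N-cadherin and vimentin, its classical readouts. These 9 genes were taken by symbol from the 54532 entries of the count files. The set was selected on the CPM of Snai1, which was higher in both groups of libraries labelled with an Fbxo38 hairpin, so the Snai1 values of those groups against control are a description here, with no test. All 9 symbols were listed for each of the 9 libraries, and 8 of the genes passed the filter on low counts. Twist2 did not, and it had 0 counts in 4 libraries.

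The libraries are bulk RNA from tumours of B16-F10, a pigmented mouse melanoma line of the C57BL/6 strain. Cells carrying short hairpin RNAs were grafted under the skin of C57BL/6 mice, which keep their own immune system and stroma, and every tumour was taken on day 16. Control tumours carried a control hairpin (titles shcontrol, genotype label WT, 3 libraries). The other tumours carried a hairpin against Fbxo38, the substrate receptor of an SCF ubiquitin ligase, as shFBXO38#1 (3 libraries) or shFBXO38#2 (3 libraries), and no sample had a further treatment. The genotype labels of those 6 samples count upwards in gene number from Fbxo38, so the groups were taken from the titles. The sources used here give neither the age and sex of the mice nor whether a hairpin line is a clone or a pool. No label ties the libraries of a group to separate mice, and p-values therefore measure only the spread between libraries, which may be technical.

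SNAIL, ZEB and TWIST proteins are DNA-binding repressors and activators that sit on E-box motifs, switch off Cdh1 and other junction genes, and switch on motility and matrix genes. Melanocytes come from the neural crest and are not epithelial in origin. In the melanocyte lineage Snai2 and Zeb2 are known to be part of the differentiated state, and Zeb1 and Twist1 are known from dedifferentiated melanoma. Fibroblasts, pericytes and other stromal cells of a tumour express Snai1, Zeb1, Twist1, Twist2, Cdh2 and Vim, and leukocytes express Vim and Zeb2. In bulk RNA, a change in the number of cells of a type and a change in RNA per cell cannot be told apart.

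The Snai1 promoter is shown because Snai1 leads this set and because Snail proteins are known to bind their own promoter through an E-box. The sequence is the 250 bases before the RefSeq start of Snai1, chr2:167537945-167538194 on the plus strand of GRCm38.p6, written 5′ to 3′, with the match to the Snail E-box CACCTG in capitals (on the opposite strand the motif reads CAGGTG). The 250 bases before the RefSeq start of Vim, chr2:13574061-13574310 on the plus strand, are shown beside it as the promoter of the most abundant of the 9 genes. The Vim window lies inside the GENCODE gene, which begins at 13573927, whereas the Snai1 window ends just before the GENCODE start of Snai1.
Snai1: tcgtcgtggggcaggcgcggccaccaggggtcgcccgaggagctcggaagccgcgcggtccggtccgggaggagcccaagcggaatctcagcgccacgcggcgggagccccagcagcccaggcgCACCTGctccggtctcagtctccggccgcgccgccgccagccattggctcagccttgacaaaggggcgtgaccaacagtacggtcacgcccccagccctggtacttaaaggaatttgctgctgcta
Vim: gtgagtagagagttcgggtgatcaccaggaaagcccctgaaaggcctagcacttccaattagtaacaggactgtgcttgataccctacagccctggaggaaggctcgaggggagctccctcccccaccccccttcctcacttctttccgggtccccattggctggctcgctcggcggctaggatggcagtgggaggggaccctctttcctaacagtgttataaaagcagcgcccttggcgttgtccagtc
The Snai1 window held 1 such E-box, which begins 126 bases before the start, and the Vim window held none. Of the 9 genes 5 had a promoter in the RefSeq table, and no E-box match was found in the windows of Twist1, Twist2 or the 4 listed starts of Zeb2. Over all RefSeq promoter windows of this length, 17.22% (5657 of 32851) held the motif. A match describes the letters of the window only.

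Each library held 15322163 to 17342554 counts. On the first principal component of all tested genes (35.8% of the variance), replicate 1 of the libraries labelled hairpin 1 (at 60.6) and replicate 2 of the hairpin 2 libraries (at -54.8) lay farthest apart. Fbxo38, the gene the hairpins target, had 27.9 ± 5.42 CPM (CPM divides counts by the TMM-scaled library size; SD, n = 3) in control. It had 26.0 ± 7.87 CPM (SD, n = 3) in the libraries labelled hairpin 1 and 14.7 ± 5.39 CPM (SD, n = 3) in the hairpin 2 libraries. Its level was thus not lower than control beyond the replicate spread in the libraries labelled hairpin 1 (log2 fold change -0.10, SE 0.28, 95% interval -0.73 to 0.53), and every direction drawn from them below is from the label. In the hairpin 2 libraries the log2 fold change was -0.92 (SE 0.29, edgeR adjusted p = 0.254). They did not overlap control, which held for 20.9% of all tested genes. Hairpin 2 replicate 1 (20.96 CPM) lay below the lowest control (21.66 CPM) by less than counting error (95% Poisson intervals 18.8 to 23.3 and 19.5 to 24.0 CPM). Replicates 2 and 3 were at 11.4 and 11.9 CPM.

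Snai1, the founding Snail repressor of Cdh1, was counted 15, 14 and 8 times in the 3 control libraries, or 0.895, 0.915 and 0.476 CPM. The libraries labelled hairpin 1 held 82, 39 and 40 counts, or 4.86, 2.62 and 2.52 CPM. The hairpin 2 libraries held 30, 51 and 52 counts, or 1.88, 3.04 and 3.17 CPM. Every one of the 6 hairpin libraries was above the highest control, and replicate 1 of the libraries labelled hairpin 1 was the highest of all. The group means were 0.762 ± 0.248 CPM in control, 3.335 ± 1.318 CPM in the libraries labelled hairpin 1 and 2.697 ± 0.709 CPM in the hairpin 2 libraries (SD, n = 3 each). These are fitted log2 fold changes of 2.12 (SE 0.44) and 1.82 (SE 0.44), 4.36-fold and 3.52-fold, and they share the control libraries. Leaving out any 1 library kept them between 1.73 and 2.28 and between 1.57 and 2.02, with the lowest value for the libraries labelled hairpin 1 reached without their replicate 1. The choice of the set used this difference. Between the hairpin groups, which the choice did not use, Snai1 differed by less than the replicate spread, with a log2 fold change of -0.31 in hairpin 2 against the libraries labelled hairpin 1 (SE 0.41, 95% interval -1.21 to 0.59, edgeR adjusted p = 0.781).

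Snai2, the Snail protein Slug of neural crest and melanocytes, had 2.45, 1.503 and 1.67 CPM in control. It had 3.08, 2.76 and 1.39 CPM in the libraries labelled hairpin 1 and 3.64, 2.50 and 2.44 CPM in the hairpin 2 libraries, so both hairpin groups overlapped control. Its log2 fold changes of 0.36 (SE 0.40) and 0.61 (SE 0.40) against control did not pass the test (edgeR adjusted p = 0.9999 and 0.499). Snai1 made up 29.0% ± 8.03 of the summed Snai1 and Snai2 counts in control, 58.2% ± 8.31 in the libraries labelled hairpin 1 and 48.5% ± 12.5 in the hairpin 2 libraries (SD, n = 3 each). That share rests on the Snai1 counts that chose the set, and its libraries hold only 36 to 134 counts of both genes together. The share was 9.67 percentage points lower in hairpin 2 than in the libraries labelled hairpin 1, with overlapping libraries (exact permutation test, two-sided, p = 0.4), and with 3 against 3 no p below 0.1 is possible.

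**Figure D1:**
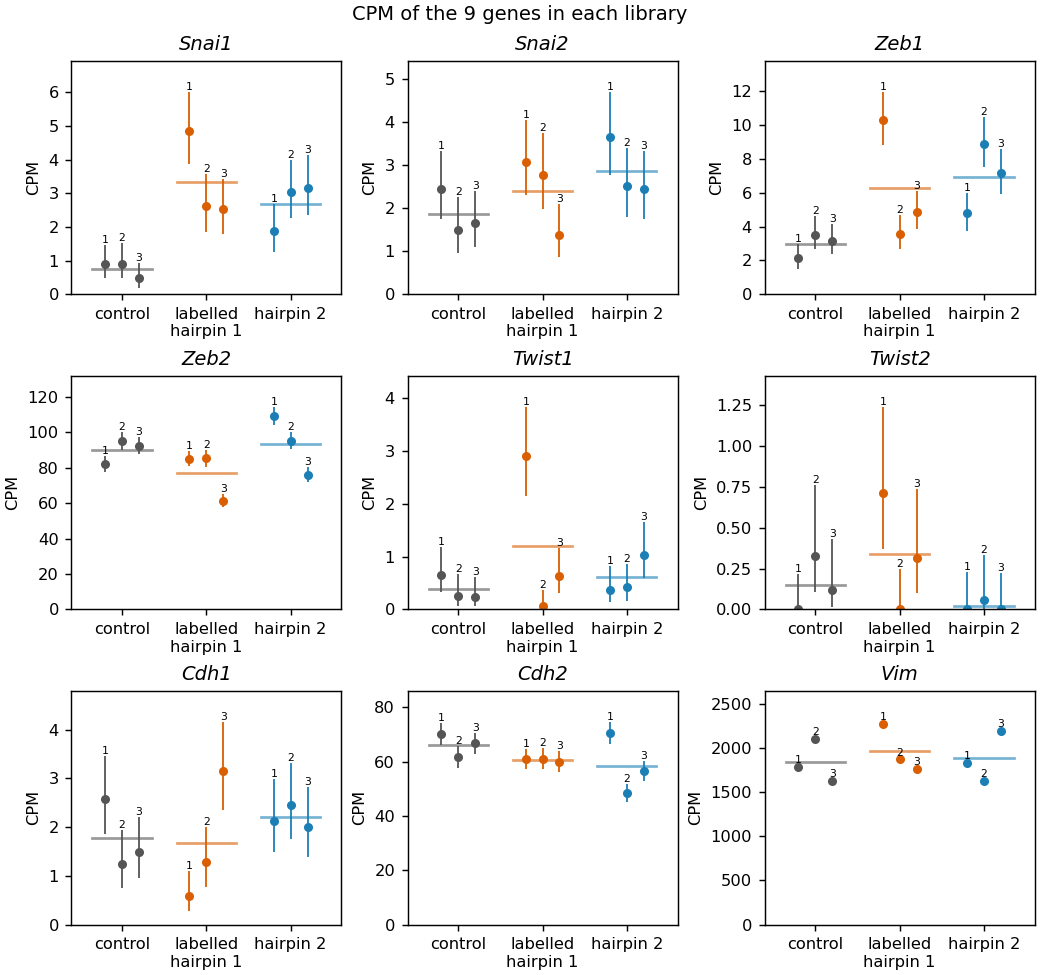
CPM of each of the 9 genes in each library, 1 panel a gene with its own linear axis from 0; points are libraries numbered by replicate, vertical lines are 95% Poisson intervals of the count, and horizontal bars are means of 3 libraries. Snai1 and Zeb1 are the panels in which all 6 hairpin libraries lie above the highest control, and for Zeb1 replicate 2 of the libraries labelled hairpin 1 (3.57 CPM) barely clears it (3.53 CPM).

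Zeb1, a zinc finger and homeobox repressor of Cdh1, was counted 36, 54 and 53 times in control, or 2.15, 3.53 and 3.15 CPM. The libraries labelled hairpin 1 held 174, 53 and 77 counts, or 10.3, 3.57 and 4.86 CPM. The hairpin 2 libraries held 76, 149 and 117 counts, or 4.77, 8.89 and 7.13 CPM. All 6 hairpin libraries were above the highest control, but the lowest of them stood at 3.57 CPM against 3.53 CPM, a gap well inside the counting error of either (95% Poisson intervals 2.67 to 4.66 and 2.65 to 4.60 CPM). Of all 14193 tested genes, 1.36% had all 6 hairpin libraries above all 3 controls. The log2 fold changes of Zeb1 were 1.09 (SE 0.41, 2.12-fold) in the libraries labelled hairpin 1 and 1.23 (SE 0.41, 2.35-fold) in the hairpin 2 libraries, against the same controls. Neither passed the test over all genes, with unadjusted p = 0.025 and 0.0135 and adjusted p = 0.9999 and 0.265 in edgeR. Without replicate 1 of the libraries labelled hairpin 1, the first of these was 0.50 (SE 0.36), while the second was at least 1.00 without any 1 library. Between the hairpin groups the log2 fold change of Zeb1 was 0.15 (95% interval -0.75 to 1.04).

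Zeb2, the paralog that is the ZEB protein of normal melanocytes, was far more abundant, with 82.0, 95.1 and 92.6 CPM in control. It had 85.3, 85.4 and 61.4 CPM in the libraries labelled hairpin 1 and 109, 95.2 and 76.2 CPM in the hairpin 2 libraries. The hairpin libraries lay on both sides of control, and replicate 3 was the lowest of each hairpin group. The log2 fold changes were -0.22 (SE 0.16) and 0.06 (SE 0.16), with edgeR adjusted p = 0.9999 and 0.896. With the trend of counts in transcript length and GC content removed from each library, the hairpin 2 value turned to -0.36. That trend differed between groups: over 14090 genes, log2 fold change correlated with transcript length at Spearman rho = -0.019 in the libraries labelled hairpin 1, 0.372 in the hairpin 2 libraries and 0.419 between the hairpin groups, where genes are not independent replicates. In the same refit with the trend removed, Zeb1 stood at 1.05 and 0.98 against control. The part of the trend in the Zeb1 values was not tested further.

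Zeb1 made up 2.55%, 3.58% and 3.29% of the summed Zeb1 and Zeb2 counts in the control libraries. The share was 10.8%, 4.01% and 7.33% in the libraries labelled hairpin 1, and 4.18%, 8.54% and 8.55% in the hairpin 2 libraries. All 6 hairpin shares were above all 3 control shares, although the binomial intervals of the lowest hairpin shares overlapped those of control. The means were 3.14% ± 0.529 in control, 7.37% ± 3.39 in the libraries labelled hairpin 1 and 7.09% ± 2.52 in the hairpin 2 libraries (SD, n = 3 each). Exact two-sided permutation tests against control gave p = 0.1 for each hairpin group, the smallest p possible with 3 against 3, and p = 1.0 between the hairpin groups. Zeb2 thus made up most of the ZEB counts in all 9 libraries.

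**Figure D2:**
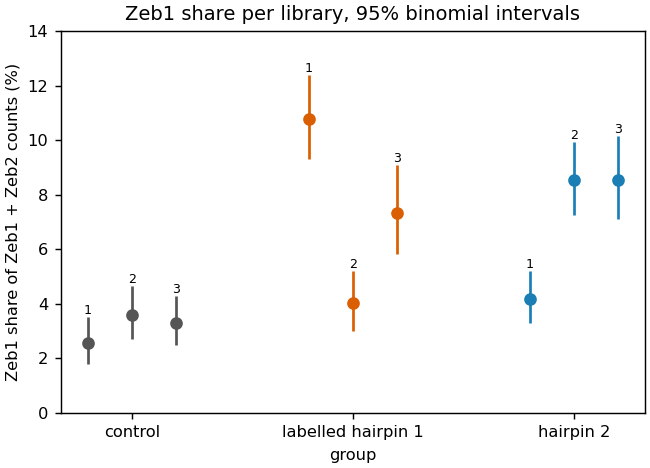
Zeb1 share (%) of the summed Zeb1 and Zeb2 counts in each library, by group; points are libraries numbered by replicate and lines are 95% Clopper-Pearson binomial intervals, which cover counting error only. Control lies between 2.55% and 3.58%, and the hairpin libraries between 4.01% and 10.8%.

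Twist1, a basic helix-loop-helix factor of mesoderm and neural crest, was near the limit of counting, with 11, 4 and 4 counts in control. The libraries labelled hairpin 1 held 49, 1 and 10 counts, or 2.90, 0.0673 and 0.631 CPM, and the hairpin 2 libraries held 6, 7 and 17 counts, or 0.377, 0.417 and 1.04 CPM. Replicate 1 of the libraries labelled hairpin 1 alone stood far above the rest. The log2 fold change of the libraries labelled hairpin 1 was 1.63 (SE 1.00, edgeR adjusted p = 0.9999) with that library and -0.14 (SE 0.97) without it. In the hairpin 2 libraries it was 0.65 (SE 1.03, edgeR adjusted p = 0.807). Twist2, its close relative of dermal mesenchyme, was counted 0, 5 and 2 times in control, 12, 0 and 5 times in the libraries labelled hairpin 1, and 0, 1 and 0 times in the hairpin 2 libraries. A count of 0 at these depths allows up to 0.178 to 0.202 CPM over the 9 libraries, so differences in Twist2 were not detectable at this depth. The highest Twist2 count fell in the library with the highest Twist1 count.

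Cdh1, the junction cadherin that the EMT factors repress, was scarce in all groups. Control had 2.57, 1.24 and 1.49 CPM, the libraries labelled hairpin 1 had 0.592, 1.28 and 3.16 CPM, and the hairpin 2 libraries had 2.13, 2.44 and 2.01 CPM. The libraries labelled hairpin 1 held both the lowest and the highest value, and the lowest fell in the library highest in Snai1, Zeb1, Twist1 and Vim. Over all 9 libraries, Pearson r of Cdh1 with these 4 genes in log2 CPM was -0.179, -0.276, -0.259 and -0.617. Without that library and hairpin 2 replicate 2, the values were 0.291, 0.15, 0.748 and -0.25. The log2 fold changes of Cdh1 were -0.08 (SE 0.56) and 0.31 (SE 0.56), with edgeR adjusted p = 0.9999 and 0.828. The first became 0.32 without replicate 1 and -0.92 without replicate 3 of the libraries labelled hairpin 1. Cdh1 made up 2.56% ± 0.841 of the summed Cdh1 and Cdh2 counts in control, 2.67% ± 2.09 in the libraries labelled hairpin 1 and 3.72% ± 0.970 in the hairpin 2 libraries (SD, n = 3 each). Exact two-sided permutation tests of this share gave p = 0.9 and 0.3 against control and p = 0.5 between the hairpin groups.

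Cdh2, the cadherin of melanoma and mesenchymal cells, had 70.3, 61.7 and 66.8 CPM in control. It had 60.9, 61.1 and 60.0 CPM in the libraries labelled hairpin 1 and 70.5, 48.4 and 56.7 CPM in the hairpin 2 libraries. Of the 6 hairpin libraries 5 lay below the lowest control and 1 above the highest. The log2 fold changes were small, -0.13 (SE 0.13, 95% interval -0.43 to 0.17) and -0.18 (SE 0.13, 95% interval -0.48 to 0.12), with edgeR adjusted p = 0.9999 and 0.565. Vim, the intermediate filament of mesenchymal cells, melanoma and leukocytes, had 1787, 2109 and 1628 CPM in control. It had 2279, 1873 and 1761 CPM in the libraries labelled hairpin 1 and 1829, 1633 and 2192 CPM in the hairpin 2 libraries, and all groups overlapped. Its log2 fold changes of 0.10 (95% interval -0.22 to 0.42) and 0.03 (95% interval -0.29 to 0.36) had edgeR adjusted p = 0.9999 and 0.935. At 27371 or more counts a library, the width of these intervals came from the spread between libraries and not from counting.

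**Figure D3:**
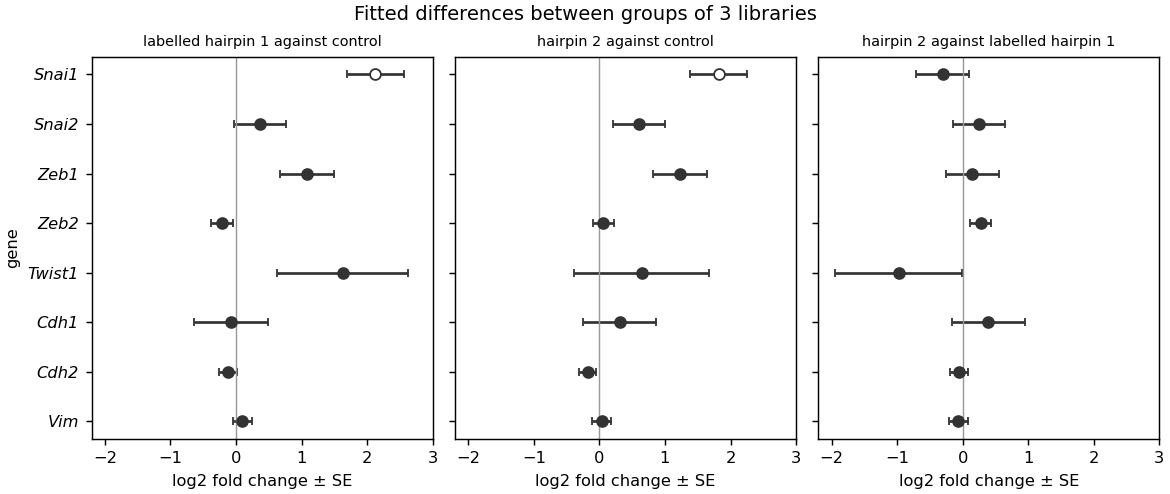
Fitted log2 fold changes (edgeR, 3 against 3 libraries) of the 8 tested genes in each comparison, as points with bars of ±1 SE; the vertical line marks no difference, and open points mark the Snai1 values by which the set was chosen. Zeb1 stands at 1.09 and 1.23 against control, Twist1 has the widest bars, and the Zeb2, Cdh2 and Vim points lie within 0.28 of no difference in all 3 panels.

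Taking the 8 tested genes as a set, none passed an adjusted p of 0.05 in edgeR in any comparison, where 0% of 14193 genes were called in each. Of the 7 genes other than Snai1, edgeR gave 1 (Zeb1) at an unadjusted p under 0.05 in each hairpin group against control, beside 450 (3.17%) and 2046 (14.4%) of all tested genes. Between the hairpin groups it gave 0 of the 8, beside 1655 of all tested genes (11.7%). DESeq2 called 0, 280 and 89 genes and limma-voom 0 in each, and no tested gene of the set was among them. Snai1 did not overlap control in either hairpin group, which the choice of the set fixed. Of the other 7 genes, 2 (Zeb1 and Cdh2) did not overlap control in the libraries labelled hairpin 1, against 8.39% of all tested genes. In the hairpin 2 libraries 1 of the 7 (Zeb1) did not overlap control, against 20.9% of all tested genes, so this count is no higher than the background. Both counts rest on the same control libraries. With hairpin 2 set against the libraries labelled hairpin 1, 0 of the 8 genes had groups that did not overlap, against 16.0% of all tested genes.

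Per kilobase of exon the order of mean levels over the 9 libraries was Vim, Cdh2, Zeb2, Snai1, Snai2, Zeb1, Twist1, Cdh1 and Twist2. Vim stood at 400.4 ± 50.3 CPM per kilobase (SD, n = 9), and Cdh2 and Zeb2 at 7.66 ± 0.858 and 4.36 ± 0.679. Snai1 was at 1.40 ± 0.855 and Snai2 at 1.18 ± 0.371, with Snai1 above Snai2 in 5 of 9 libraries, all of them hairpin libraries. In every control Snai2 was above Snai1 (means 0.926 and 0.470), so the place of Snai1 rests on the hairpin values that chose the set. Zeb1 at 0.523 ± 0.272, Twist1 at 0.449 ± 0.530 and Cdh1 at 0.411 ± 0.174 CPM per kilobase were likewise not separated by their spread. Zeb1 was above Twist1 in 7 of 9 libraries and Twist1 above Cdh1 in 2 of 9. Twist2 was last at 0.0536 ± 0.0762. Each of the first 3 genes was above the next in 9 of 9 libraries, and the order was the same with the longest transcript as the length.

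**Figure D4:**
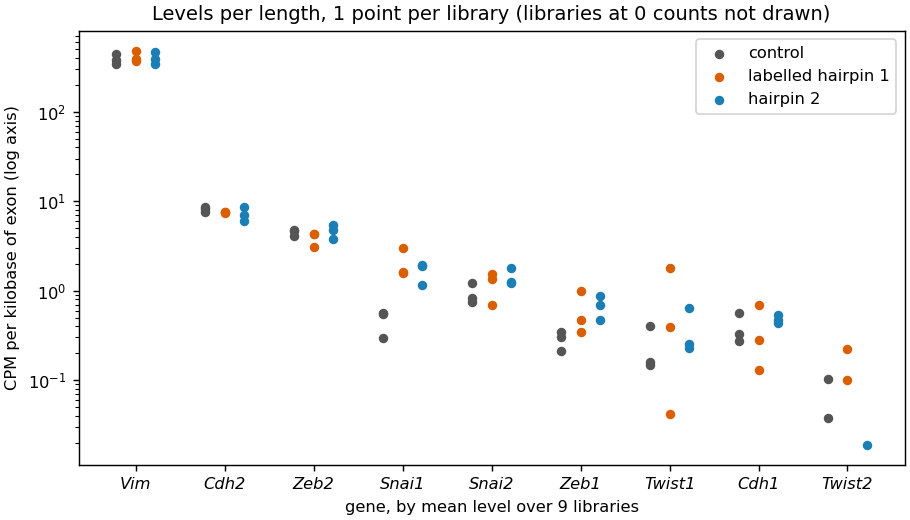
Level of each gene in CPM per kilobase of exon (log axis), ordered by the mean over 9 libraries, with 1 point per library coloured by group; libraries with 0 counts of Twist2 are not drawn. Vim lies between 343 and 480, and Snai1 is the gene whose control points (0.294 to 0.564) stand apart below its hairpin points (1.16 to 2.99).

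Among other EMT transcription factors, 10 of 12 listed genes were tested, 5 with a positive and 5 with a negative log2 fold change in each hairpin group against control, and none was called. The medians of 0.01 and 0.15 compare with 0.01 over all tested genes in both. Tcf4, an E-protein partner of Twist, was at 33.3 ± 5.18 CPM in control, 38.5 ± 5.85 CPM in the libraries labelled hairpin 1 and 45.1 ± 10.4 CPM in the hairpin 2 libraries (SD, n = 3 each; log2 fold changes 0.21 and 0.44, edgeR adjusted p = 0.9999 and 0.328). Of 10 epithelial transcription and splicing factors only Klf4 and Klf5 reached the filter, and Grhl2, Ovol1 and Esrp1 did not. Of 20 epithelial junction and keratin genes 5 were tested and 0 called, with medians of 0.04 and 0.07. Tjp1, which encodes the junction scaffold ZO-1, was at 82.3 ± 8.16 CPM in control, 83.6 ± 10.5 CPM in the libraries labelled hairpin 1 and 107 ± 15.3 CPM in the hairpin 2 libraries (SD, n = 3 each; log2 fold changes 0.02 and 0.38, edgeR adjusted p = 0.9999 and 0.278). Of 8 listed keratinocyte markers, Krt5, Krt14, Krt1, Dsg3, Trp63 and Lor were at 0 in all libraries. Sfn alone passed the filter and was at 2.087 to 4.7 CPM over the 9 libraries. The remaining marker had counts only in control replicate 2 and hairpin 2 replicate 3.

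Of 20 mesenchymal effector genes 18 were tested. In the libraries labelled hairpin 1, all 18 values were positive (median 0.87), and in the hairpin 2 libraries 13 were positive and 5 negative with a median of 0.37. None was called in edgeR, with 5 and 3 of the 18 at an unadjusted p under 0.05, beside 3.17% and 14.4% of all tested genes. Mmp2, a gelatinase, had 8.59, 6.01 and 6.54 CPM in control and 28.1, 12.8 and 13.1 CPM in the libraries labelled hairpin 1. It had 8.85, 14.02 and 23.9 CPM in the hairpin 2 libraries (edgeR adjusted p = 0.9999 and 0.275). Neither hairpin group overlapped control, beside 8.39% and 20.9% of all tested genes, and 8.85 CPM barely cleared the highest control at 8.59 CPM. Sparc, Cd44 and Itgb1, the most abundant of the list, had log2 fold changes of 0.56, 0.01 and 0.14 in the libraries labelled hairpin 1. They had 0.36, 0.19 and 0.23 in the hairpin 2 libraries. Among 13 other cadherins and catenins, 10 were tested and 0 called, with 8 positive and 2 negative values (Ctnna1 and Ctnnb1, at -0.10 each) in the libraries labelled hairpin 1 and 10 positive in the hairpin 2 libraries. Cdh13, the glycolipid-anchored T-cadherin, was at 7.27 ± 0.730 CPM in control, 12.3 ± 1.92 CPM in the libraries labelled hairpin 1 and 20.7 ± 13.3 CPM in the hairpin 2 libraries (SD, n = 3 each). Its hairpin 2 spread came from replicate 2 at 36.0 CPM, and the log2 fold changes of 0.76 and 1.505 had edgeR adjusted p = 0.9999 and 0.242.

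Inducing signals of EMT were tested for 22 of 24 listed genes, with 0 called and medians of 0.09 and 0.26. Id3, a helix-loop-helix inhibitor and target of BMP and TGF-beta signalling, had 3.76, 4.31 and 3.69 CPM in control. It had 14.6, 8.41 and 8.90 CPM in the libraries labelled hairpin 1 and 4.83, 10.6 and 11.03 CPM in the hairpin 2 libraries. All 6 were above control, beside 1.36% of all tested genes, and the lowest (4.83 CPM) stood close to the highest control (4.31 CPM). The log2 fold changes of Id3 were 1.44 (SE 0.34) and 1.17 (SE 0.34), with edgeR adjusted p = 0.9999 and 0.242. Tgfbr1, a TGF-beta receptor kinase, was at 40.1 ± 2.66 CPM in control and 41.3 ± 2.43 CPM in the libraries labelled hairpin 1. It was at 59.2 ± 5.20 CPM in the hairpin 2 libraries (SD, n = 3; log2 fold change 0.56, SE 0.11, edgeR adjusted p = 0.242). Met, the receptor of hepatocyte growth factor, had log2 fold changes of 0.08 and 0.42, the second at edgeR adjusted p = 0.249. Over all genes with a length, hairpin 2 log2 fold changes against control rose with transcript length (Spearman rho = 0.372). The part of that trend in the hairpin 2 values of Tgfbr1, Met, Tcf4, Tjp1, Atm and other named genes was not tested.

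The proteins that act with or on the Snail and ZEB factors gave no call either. Of 17 listed corepressors all were tested, with 12 negative values in the libraries labelled hairpin 1 and 10 in the hairpin 2 libraries. Prmt5, an arginine methyltransferase recruited by Snail, had 126 ± 6.36 CPM in control, 110 ± 3.21 CPM in the libraries labelled hairpin 1 and 92.7 ± 5.34 CPM in the hairpin 2 libraries (SD, n = 3 each). Prmt5 did not overlap control in either, beside 8.39% and 20.9% of all tested genes. Its log2 fold changes were -0.20 and -0.45, with edgeR adjusted p = 0.9999 and 0.242. Loxl2, a lysyl oxidase that stabilises Snail protein, had 37.3 ± 9.06 CPM in control, 66.0 ± 9.54 CPM in the libraries labelled hairpin 1 and 53.1 ± 9.48 CPM in the hairpin 2 libraries (SD, n = 3 each; log2 fold changes 0.83 and 0.51, edgeR adjusted p = 0.9999 and 0.295). Ubiquitin ligases and deubiquitinases of Snail proteins (17 tested of 18 listed) had medians of 0.03 and 0.06, and kinases and phosphatases (10 of 11) of -0.03 and 0.10. Atm, a DNA damage kinase that phosphorylates Snail, had 41.2 ± 3.51 CPM in control, 38.8 ± 6.70 CPM in the libraries labelled hairpin 1 and 58.3 ± 8.13 CPM in the hairpin 2 libraries (SD, n = 3 each; log2 fold changes -0.09 and 0.50, edgeR adjusted p = 0.9999 and 0.253). Other intermediate filament and linker genes (8 tested of 9) had medians of 0.07 and -0.01. The 14 melanoma differentiation genes had medians of 0.04 and 0.03, among them Ednrb, an endothelin receptor of melanoblasts, at 5.69 ± 1.91 CPM in control, 10.4 ± 2.64 CPM in the libraries labelled hairpin 1 and 16.9 ± 10.5 CPM in the hairpin 2 libraries (edgeR adjusted p = 0.9999 and 0.242).

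Levels of host cell markers differed between the libraries, by amounts that depended on the cell type. The melanocyte list (8 genes) summed to 22830 to 28470 CPM in control, 22940 to 27590 CPM in the libraries labelled hairpin 1 and 21900 to 27320 CPM in the hairpin 2 libraries. Against that the fibroblast list (13 genes, such as Col1a1, Col1a2 and Col3a1) summed to 172 to 428 CPM in control (median 210.1), 256 to 3562 CPM in the libraries labelled hairpin 1 (median 790) and 287 to 1518 CPM in the hairpin 2 libraries (median 475). All 13 fibroblast genes had positive log2 fold changes in both hairpin groups, with medians of 2.50 and 2.17, and 0 of 13 were called in edgeR. The groups overlapped in the summed level, and replicate 1 of the libraries labelled hairpin 1, highest in Snai1, Zeb1 and Twist1, was also highest here. No fibroblast, pericyte, endothelial, macrophage or leukocyte marker was at 0 in all libraries. Pericyte and smooth muscle genes summed to 116 to 203 CPM in control, 155 to 301 CPM in the libraries labelled hairpin 1 and 181 to 386 CPM in the hairpin 2 libraries. Macrophage genes summed to 183 to 489, 191 to 607 and 55.8 to 704 CPM, and leukocyte genes to 104 to 269, 123 to 323 and 72.8 to 304 CPM, in the same order of groups. Globin and other erythroid genes summed to 2544 to 4976 CPM in control, 1037 to 1493 CPM in the libraries labelled hairpin 1 and 422 to 21540 CPM in the hairpin 2 libraries, the highest in replicate 2. Fibroblasts, pericytes and other stromal cells are known to express Snai1 and Zeb1, but no value here places either gene in a cell type. The part of stromal cells in the Snai1 and Zeb1 values was not tested.

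Across the 9 libraries, 88 relations were computed between the 8 tested genes and 11 marker lists, each list taken as the mean log2 CPM of its genes. Zeb1 followed the fibroblast list with Pearson r = 0.811 (permutation p = 0.00834, adjusted 0.105) and Spearman rho = 0.883 (permutation p = 0.00308, adjusted 0.107), and r was 0.658 without the 2 libraries farthest from the list's median. This was not particular to fibroblasts: Zeb1 gave r = 0.829 (permutation p = 0.00452, adjusted 0.0892) with rho = 0.850 (permutation p = 0.00607, adjusted 0.107) for the pericyte and smooth muscle list, with r = 0.743 without the 2 farthest. For the endothelial list it gave r = 0.794 (permutation p = 0.0133, adjusted 0.117) with rho = 0.750 (permutation p = 0.0255, adjusted 0.249) and r = 0.519 without the 2 farthest. For the neutrophil list, with 4 tested genes, Zeb1 gave r = 0.675 (permutation p = 0.0482, adjusted 0.283) with rho = 0.550 (permutation p = 0.133, adjusted 0.508). That r was 0.504 without the 2 farthest. Cdh2 ran the other way, with r = -0.852 (permutation p = 0.00596, adjusted 0.0892) and rho = -0.733 (permutation p = 0.0311, adjusted 0.274) for the pericyte and smooth muscle list, and r = -0.437 without the 2 farthest. For the endothelial list Cdh2 gave r = -0.801 (permutation p = 0.00566, adjusted 0.0892) and rho = -0.883 (permutation p = 0.00308, adjusted 0.107), with r = -0.731 without the 2 farthest. For Twist1, r with the fibroblast list was 0.778 (permutation p = 0.0115, adjusted 0.117) with rho = 0.700 (permutation p = 0.0433, adjusted 0.293), and it rested on those 2 libraries, with r = 0.21 without them. Snai1 correlated with the fibroblast list at r = 0.779 and rho = 0.850, at r = 0.745 in deviations from the group means and at r = 0.676 without the 2 farthest libraries. With the endothelial list its r was 0.739, with the pericyte and smooth muscle list 0.643, and with the macrophage and erythroid lists 0.194 and -0.18. With the neutrophil list r of Snai1 was 0.432. In deviations from the group means, r of Snai1 was 0.796 for the neutrophil list and 0.61 for the endothelial list. It was 0.393, 0.423 and 0.331 for the pericyte and smooth muscle, macrophage and erythroid lists. For Snai1 no p is given, since its difference between groups chose the set.

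Vim followed the leukocyte list with r = 0.930 (permutation p = 0.000328, adjusted 0.0289) and rho = 0.850 (permutation p = 0.00607, adjusted 0.107). With the macrophage list it gave r = 0.902 (permutation p = 0.000681, adjusted 0.03) and rho = 0.817 (permutation p = 0.0108, adjusted 0.158). Of the 88 relations these 2 were the ones under 0.05 after adjustment of r, and 0 were after adjustment of rho. In deviations from the group means r was 0.964 and 0.915, and without the 2 farthest libraries it was 0.849 and 0.927. Vim also gave r = 0.838 with the Schwann list (permutation p = 0.00608, adjusted 0.0892) and 0.753 with the fibroblast list (permutation p = 0.0206, adjusted 0.151). With the immediate early list r was 0.705 (permutation p = 0.0365, adjusted 0.229). Without the 2 farthest libraries these 3 values were 0.699, 0.197 and 0.21. Vim was highest in the 3 libraries with the highest leukocyte level, 1 from each group, namely replicate 1 of those labelled hairpin 1 (2279 CPM), hairpin 2 replicate 3 (2192 CPM) and control replicate 2 (2109 CPM).

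**Figure D5:**
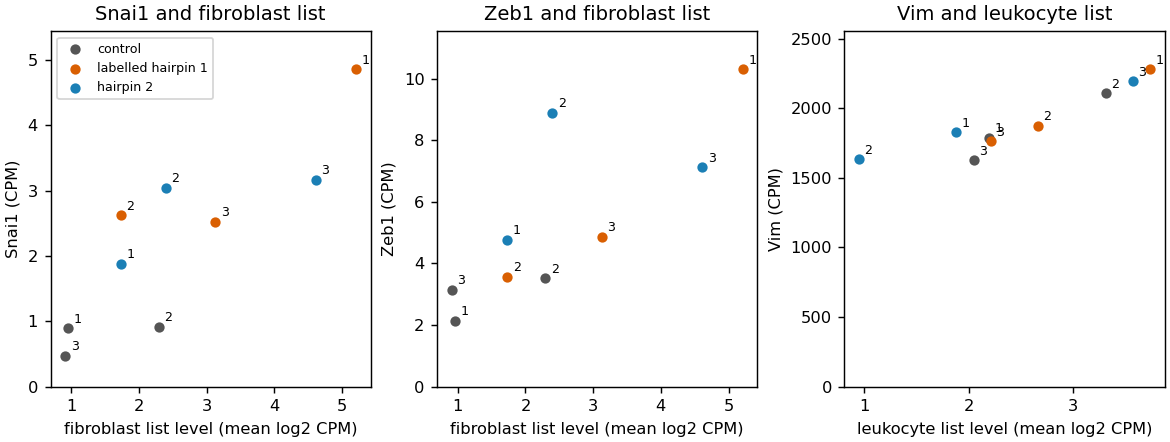
Snai1 and Zeb1 (CPM) against the fibroblast list level, and Vim (CPM) against the leukocyte list level, both levels as mean log2 CPM of the list; points are the 9 libraries, coloured by group and numbered by replicate. The 3 controls lie at or below 0.915 CPM of Snai1 and the 6 hairpin libraries at or above 1.88 CPM, while in the Vim panel the groups are interleaved.

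Snai1 and Zeb1 varied together over the 9 libraries (r = 0.821, rho = 0.917), also in deviations from the group means (r = 0.647) and without both libraries that stood apart (r = 0.726), given as a description because the Snai1 values chose the set. Of the 28 pairs among the 8 tested genes, none without Snai1 had an adjusted permutation p under 0.05 for r or rho. By likeness of log2 CPM over the 9 libraries, the 5 genes closest to Snai1 were Ptk7 (r = 0.964), Gm12751 (r = 0.961), A4galt (r = 0.946), Id3 (r = 0.944) and Armcx3 (r = 0.926). Ptk7, a receptor of planar cell polarity signalling, averaged 1.80 CPM in control, 5.57 CPM in the libraries labelled hairpin 1 and 4.04 CPM in the hairpin 2 libraries. In deviations from the group means, which leave out the difference between groups, the closest were Trappc2l, Arhgef26, Adra2a, Ascc1 and Kctd11 (r = 0.983 to 0.944), none of which was in the first list. Closest to Zeb1 were Lipo3, Aspn and Tmem98 (r = 0.965, 0.960 and 0.958), of which Aspn encodes the matrix proteoglycan asporin. Closest to Vim were Itgal, Arg1 and Emilin2 (r = 0.983, 0.980 and 0.980), of which Itgal encodes a leukocyte integrin and Arg1 an arginase of macrophages. These are the highest of 14193 correlations over 9 libraries.

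The genes lie at separate places in the mouse genome (GENCODE M21, GRCm38). Snai1 (ENSMUSG00000042821.7) is on chromosome 2 from 167538195 to 167542814 on the plus strand, and Snai2 (ENSMUSG00000022676.7) on chromosome 16 from 14705852 to 14709385. Twist1 (ENSMUSG00000035799.6) is on chromosome 12 from 33957671 to 33959829 and Vim (ENSMUSG00000026728.9) on chromosome 2 from 13573927 to 13582826. Exons of Snai1, Snai2, Twist1, Cdh1, Cdh2 and Vim overlap no other gene. Zeb1 shares 198 exonic bases with Gm10125, which reached 5 counts. Zeb2 shares exonic bases with Zeb2os, which reached 14 counts, and Twist2 with Gm29100, which reached 6. For Twist2 the partner's counts are of the size of its own, so its values are uncertain.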

How the data were processed

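Tumour RNA was prepared with TRIzol and read on an Illumina NovaSeq, per the labels' protocols. The authors deposited raw counts, whole numbers listed by gene symbol, in a file per library. The submitters' processing notes name STAR 2.7.0d, Cufflinks and human genome builds, whereas the symbols are those of mouse. The sources used here do not give how reads were counted, with which gene models, or whether strand was used.

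The test was edgeR's robust quasi-likelihood F test (edgeR 4.0.16, R 4.3.3) with TMM scaling, fitted once to all 9 libraries after filterByExpr at a minimum count of 10 and a minimum total of 15. Benjamini-Hochberg adjustment ran over 14193 genes, with a threshold of 0.05. CPM use TMM-scaled totals. Log2 CPM for correlations used a prior count of 2, and correlations were tested by exact permutation. Intervals are 95% and cover counting error only for single libraries, and the limit for a count of 0 is 3 counts. Lengths came from GENCODE M21 and promoters from RefSeq (GRCm38.p6). DESeq2 1.42.0 and limma-voom (limma 3.58.1) were alternatives. The script was tested on simulated data. No library was left out. Within groups, libraries differed by far more than sampling noise, so none was counted as a repeat deposit.

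The 9 genes and all lists were chosen with earlier results of these data known. Named genes were the 9 genes and, from each pathway list, up to 3 of highest mean CPM and any with an unadjusted p under 0.01. For genes named by that p, such as Id3, Mmp2 and Prmt5, separation from control is therefore partly selected. From each marker list up to 3 of highest mean CPM could be named, and as likeness the 5 closest to Snai1 and 3 closest to each other gene. Genes named as not tested or at 0 were chosen after their values were seen.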

Additional observations from a re-analysis of the deposited data

How the results depend on the processing

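Over 524 alternative values of the 8 genes' log2 fold changes, 492 kept their direction and none crossed the threshold, and 32 reversed. Zeb1 kept its direction against control in every alternative run (0.50 to 1.36 in the libraries labelled hairpin 1 and 0.98 to 1.44 in hairpin 2). Snai1 did so too (1.73 to 2.28 and 1.57 to 2.03), but its direction chose the set, so this is a description only. Genes called over the whole table numbered 0 in each comparison. In hairpin 2 against control DESeq2 called 280, no low-count filter gave 4 and leaving out 1 library 0 to 2. In hairpin 2 against hairpin 1 these were 89, 2 and 0 to 1. The cause was not tested.

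Without both libraries that stood apart, log2 fold changes in the libraries labelled hairpin 1 against control turned to -0.14 for Twist1, 0.32 for Cdh1 and -0.0341 for Vim. Between the hairpin groups they turned to 0.98 for Twist1, -0.11 for Cdh1, 0.0688 for Cdh2 and 0.14 for Vim. With the length and GC trend removed, Zeb2 in hairpin 2 was -0.36 against control, and between the hairpin groups Zeb1 was -0.0748 and Zeb2 -0.0755. With a replicate block as well, these 3 were -0.375, -0.0526 and -0.0656.

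Leaving out 1 library moved Twist1 from -0.14 to 2.24, Cdh1 from -0.92 to 0.32 and Vim from -0.0351 to 0.198 in the libraries labelled hairpin 1 against control. In hairpin 2 against control it moved Zeb2 from -0.0703 to 0.186 and Vim from -0.0894 to 0.126. Between the hairpin groups the ranges were -0.469 to 0.0691 for Snai1, -0.0273 to 0.469 for Snai2, -0.14 to 0.72 for Zeb1, -1.59 to 0.77 for Twist1, -0.0162 to 1.23 for Cdh1, -0.207 to 0.0677 for Cdh2 and -0.186 to 0.0534 for Vim.

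The replicate numbers were not treated as pairs: deviations of same-numbered libraries correlated at -0.409 to 0.138, above 0.1 in 2 of 9 pairs. With a replicate block 0 genes were called in each comparison, and Zeb1 stood at 1.07 and 1.23 against control. Twist1 was not tested under a minimum count of 30. Counts limit Twist2, Twist1, Cdh1, Snai2 and Snai1 most, with at most 12, 49, 50, 58 and 82 counts in a library.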
